A study of Mus musculus with 29 samples.

Results

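Ifit1, Ifit3, Irf7, Ifitm3, B2m, H2-K1 and H2-D1, 7 interferon-induced and MHC class I genes, were followed through all 29 arrays of a mouse brain study. They were found by their gene symbol in the platform annotation. The 7 genes have 19 probe sets that carry a single symbol, out of 22626 tested probe sets and 12393 genes. Ifit1, Ifit3, Irf7 and Ifitm3 have 1 probe set each, B2m has 2, H2-K1 has 4 and H2-D1 has 9. Another 3 probe sets name a member among several symbols and were not used. A gene with several probe sets is represented by the brightest one, and the other probe sets are counted where the class I results are described.

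The study measured total RNA of the prefrontal cortex (18 arrays) and the caudate-putamen (11 arrays), the brain region where midbrain dopamine axons end. All mice had the FVB/N background. TgS mice carry a transgene for human AChE-S, the synaptic splice variant of acetylcholinesterase. TgR mice carry human AChE-R, the readthrough variant, and FVB/N mice, the parent strain, carry neither. MPTP, a pro-toxin whose metabolite injures dopamine neurons, was injected 4 times at 20 mg/kg with 2 h between injections, and tissue was taken 4 days later. The comparison arm is labelled naive, although the protocol describes saline injections.

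Each region and strain has 2 MPTP arrays, except TgR caudate-putamen with 1. The naive arm has 2 caudate-putamen arrays and 4 prefrontal arrays per strain. The sources used here do not give the transgene promoters, the number of founder lines, the age and sex of the mice, or whether an array holds 1 animal or a pool. The p-values therefore measure only the spread between these arrays, which may be technical.

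Interferons are secreted alarm proteins that act through JAK kinases and STAT and IRF factors on promoters with an interferon-stimulated response element, and so switch on antiviral genes. MHC class I molecules, a heavy chain such as H2-K1 or H2-D1 bound to beta-2-microglobulin, show peptides from inside the cell to CD8 T cells, and interferon raises their genes as well. In healthy brain, class I RNA comes mainly from endothelial cells and microglia, with lower levels in some neurons, where class I proteins have been linked to synapse remodelling.

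Promoter sequences are shown because interferon acts through short elements in them; a match below describes letters and is no proof of a bound site. All 7 genes had an entry among the RefSeq promoter windows (build GRCm38.p6, 250 bases before to 50 after each gene start). These were searched on both strands for GAAANNGAA, a core of the interferon-stimulated response element, which 8.56% of all 32851 windows hold. Ifit1 and Ifit3 each hold 3 matches, of which 2 overlap in Ifit1. Ifitm3 holds 2, B2m holds 1, and Irf7 holds none in this window. Sequences are printed 5′ to 3′ on the strand of the gene, with the matches in capitals. The Ifit3 matches come first because Ifit3 carries the clearest MPTP result. They lie 155, 121 and 102 bases before the gene start, at chr19:34583364-34583393, chr19:34583398-34583427 and chr19:34583417-34583446 on the plus strand. The Ifitm3 pair lies 3 and 20 bases after the start, at chr7:141010723-141010752 and chr7:141010706-141010735 on the minus strand, and the B2m match lies 139 bases before the start, at chr2:122147538-122147567 on the plus strand. A 120-base stretch of the Ifit1 promoter, chr19:34640739-34640858 on the plus strand and 150 to 31 bases before the start, shows the spacing of its matches.
Ifit3 farthest: agtggtaagtTTCACTTTCctcttctggtt
Ifit3 middle: ttaagtctgtTTCAGTTTCtactttcctct
Ifit3 nearest: tactttcctcTTCCCTTTCacaaacactga
Ifitm3 first: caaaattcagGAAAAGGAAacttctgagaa
Ifitm3 second: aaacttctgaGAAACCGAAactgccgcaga
B2m: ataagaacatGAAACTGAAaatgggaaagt
Ifit1: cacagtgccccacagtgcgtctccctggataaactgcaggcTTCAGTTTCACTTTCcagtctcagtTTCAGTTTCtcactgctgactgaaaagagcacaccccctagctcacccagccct

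The class I heavy chains hold another pair of elements, shown because H2-K1 and H2-D1 carry the same arrangement. The search letters, on both strands, were GGGATTCCC, the enhancer A site bound by NF-kappaB, and TTTCACTTC, from the class I interferon consensus. They occur in 0.353% and 0.505% of the 32851 windows and do not overlap here. In H2-D1 the stretch runs from 190 to 71 bases before the start, at chr17:35262904-35263023 on the plus strand of GRCm38.p6. In H2-K1 the same elements lie at chr17:34000438-34000467 and chr17:34000418-34000447 on the minus strand. The letters are those of the reference strain, whose H2 haplotype is not that of FVB/N.
H2-D1: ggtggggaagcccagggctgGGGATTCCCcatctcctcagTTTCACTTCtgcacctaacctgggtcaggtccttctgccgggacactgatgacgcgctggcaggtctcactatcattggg
H2-K1 enhancer A: cccagggctgGGGATTCCCcatctccacag
H2-K1 interferon consensus: atctccacagTTTCACTTCtgcacctaacc

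Some facts of the arrays bear on what follows. The tissue labels fit the region markers: Drd2, a striatal dopamine receptor, was 6.25 to 8.16 in prefrontal cortex and 10.74 to 11.43 in caudate-putamen (log2 signal), and array medians spanned 7.61 to 7.78. The 6 naive prefrontal arrays numbered 1 and 2 stand apart from the other 23. Their Eif2s3y, a Y-linked gene, was 3.42 to 3.83, against 8.41 to 9.20 elsewhere, and their Xist, expressed from the inactive X, was 8.62 to 10.61, against 6.78 to 7.24. Their mean of 5 striatal neuron markers was 9.20 to 10.29. It was 8.74 to 8.94 in naive replicates 3 and 4, 8.58 to 8.90 in MPTP prefrontal arrays and 12.13 to 12.55 in caudate-putamen. By Eif2s3y and Xist the 6 arrays read as female tissue and the other 23 as male. Every comparison of these 6 arrays with other arrays is therefore confounded with sex. The parts of sex and of tissue composition in comparisons with these 6 arrays were not tested. The source label spells their region as it does for the MPTP arrays and differently from naive replicates 3 and 4. Between these 6 arrays and the 6 naive prefrontal arrays numbered 3 and 4, 60.6% of all probe sets differed at an adjusted p under 0.05 (limma, Benjamini-Hochberg over all probe sets, the rule for every call here). Both sets therefore appear separately below. The FVB/N arrays among the 6 carried Gdpd3 at 5.63 and 5.70, a level seen in TgS, but matched FVB/N at Tnnt2, Mocs2 and Erdr1. Finally, 1 naive FVB/N caudate-putamen array, replicate 2, is described as MPTP-exposed in a single label field, against its title, source and characteristics, and was kept as naive.

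By mean log2 signal over the 29 arrays, B2m averaged 11.48, brighter than 95.2% of probe sets. H2-D1 averaged 10.50, H2-K1 10.19, Ifitm3 9.51 and Ifit3 7.18. Ifit1 averaged 5.82 and Irf7 5.89, both among the dimmest 25% of probe sets, and no detection calls came with the values. Signals of different probe sets are not comparable as RNA amounts. Ifit3 has a near-identical neighbour, Ifit3b, and the class I heavy chains have many close relatives, so signals of these probe sets can hold RNA of more than 1 gene.

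**Figure D1:**
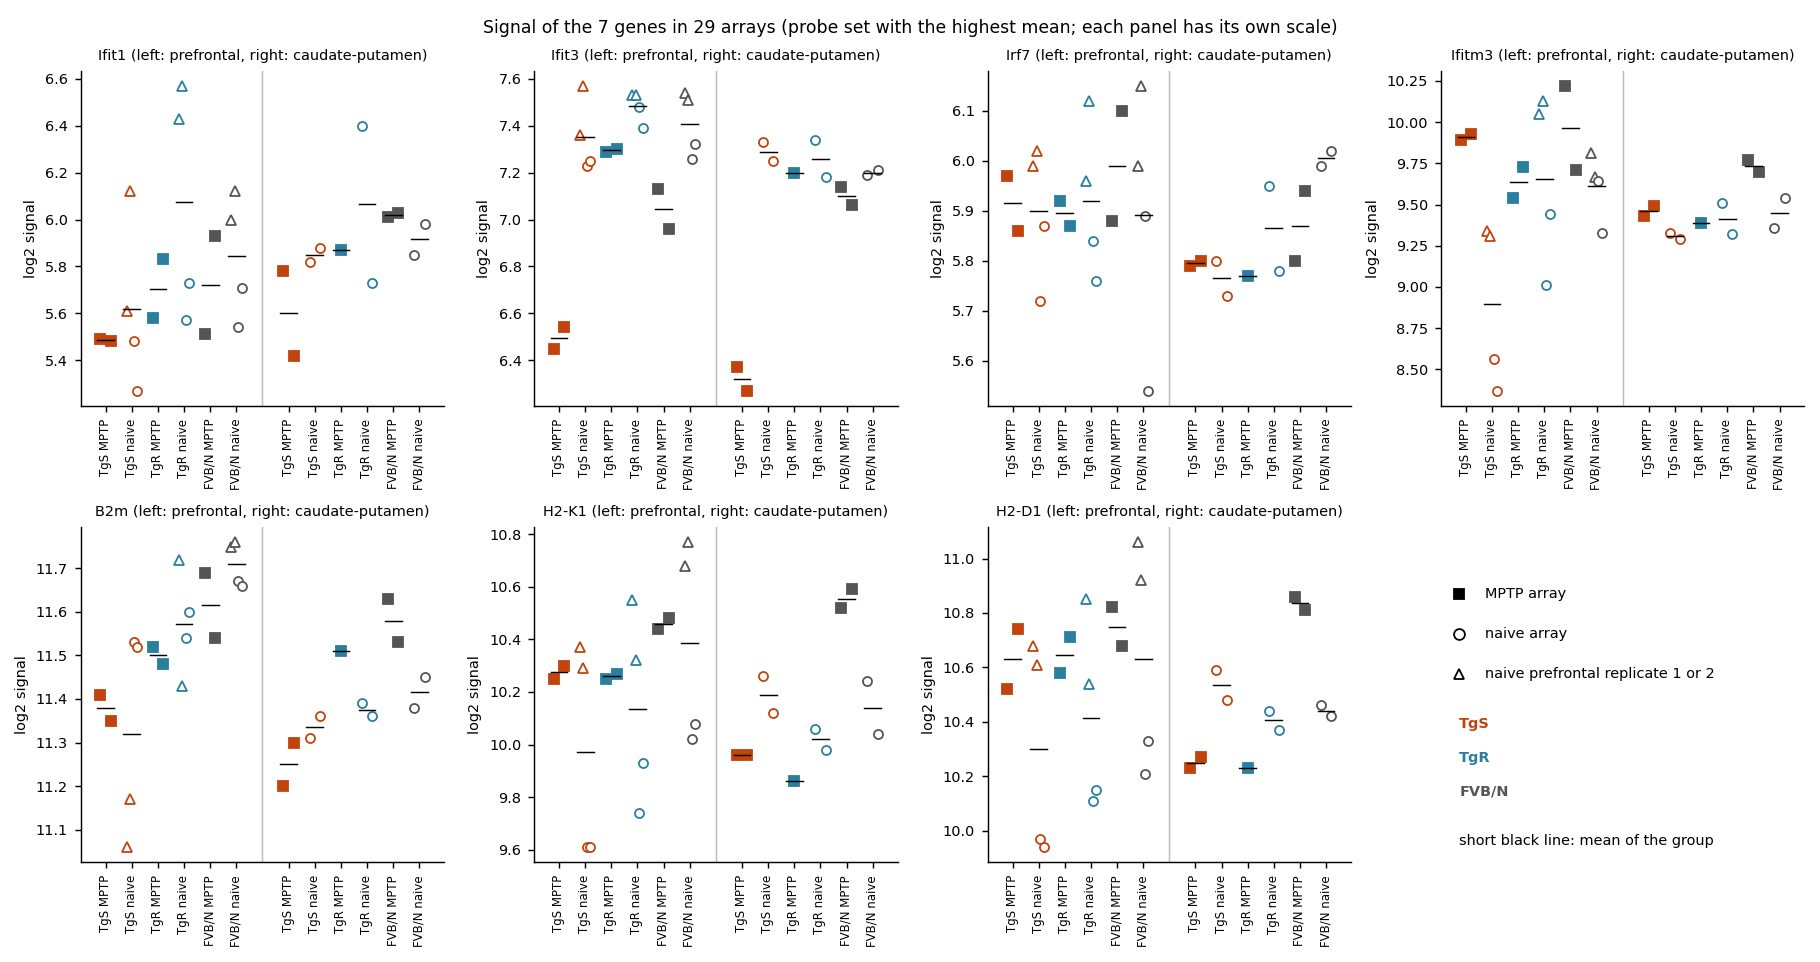
Log2 signal of the representative probe set of each gene in all 29 arrays, prefrontal cortex on the left and caudate-putamen on the right of each panel. Filled squares are MPTP arrays, open circles are naive arrays, open triangles are naive prefrontal replicates 1 and 2, and black lines are group means; the Ifit3 panel shows the 4 TgS MPTP arrays at 6.27 to 6.54, under all the others.

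Ifit3, whose protein binds other IFIT proteins and steadies their hold on foreign RNA, was lowest in the MPTP-exposed TgS mice, in both regions. The 4 TgS MPTP arrays read 6.45 and 6.54 in prefrontal cortex and 6.37 and 6.27 in caudate-putamen (log2 signal). The other 25 arrays ran from 6.96 to 7.57 with a median of 7.29. No array of the other groups reached down into the range of the 4.

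In caudate-putamen the MPTP arrays of TgS held Ifit3 at 6.37 and 6.27, against 7.33 and 7.25 in naive TgS. This is a log2 difference of -0.97 ± 0.078 (SE), or 1.96-fold lower, with an adjusted p of 1.26e-06 in limma, in a comparison that called 3.23% of all probe sets. FVB/N caudate-putamen had 7.14 and 7.06 under MPTP, against 7.19 and 7.21 when naive, a difference of -0.10 that was not called. In TgR the single MPTP array had 7.20, against 7.34 and 7.18 when naive, and 0.278% of probe sets were called. The MPTP effect in TgS minus that in FVB/N was -0.87 ± 0.110 with an adjusted p of 0.000279 in limma, and 1.14% of probe sets were called in that test of the difference. Without the naive FVB/N array whose labels conflict it was -0.88, with an adjusted p of 0.000826. Averaged over strains, Ifit3 was the 1 member of 7 called for MPTP in caudate-putamen, at -0.38 and 1.30-fold lower (adjusted p = 0.000214), where 3.36% of probe sets were called and 1.55% were called lower. In bulk tissue, fewer cells of a type and less RNA per cell cannot be told apart, here and below.

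In prefrontal cortex Ifit3 was 6.45 and 6.54 in TgS under MPTP, against 7.23 and 7.25 in naive TgS replicates 3 and 4 and 7.36 and 7.57 in replicates 1 and 2. The difference was -0.75 against replicates 3 and 4 (1.68-fold lower, adjusted p = 3.15e-06) and -0.97 against replicates 1 and 2 (adjusted p = 7.64e-09), both in limma, where 33.7% and 46.2% of probe sets were called. TgS was low against each set. FVB/N had 7.13 and 6.96 under MPTP, against 7.26 and 7.32 in naive replicates 3 and 4 and 7.54 and 7.51 in replicates 1 and 2. Its differences of -0.25 and -0.48 were also called (adjusted p = 0.0395 and 0.000223), beside 15.4% and 25.2% of probe sets. The TgS effect minus the FVB/N effect was -0.50 against replicates 3 and 4 (adjusted p = 0.0442) and -0.49 against replicates 1 and 2 (adjusted p = 0.0048). These 2 tests called 0.698% and 12.4% of probe sets, and the one against replicates 3 and 4 was lost when any of 15 arrays was left out. TgR had 7.29 and 7.30 under MPTP, against 7.48 and 7.39 in naive replicates 3 and 4, a difference of -0.14 that was not called, where 19.3% of probe sets were. Against 7.53 and 7.53 in replicates 1 and 2 it was lower by 0.24 (adjusted p = 0.016, limma).

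Between strains under MPTP, Ifit3 was 1.46-fold lower in TgS than in FVB/N in prefrontal cortex (-0.55 ± 0.078, adjusted p = 0.000484) and 1.72-fold lower in caudate-putamen (-0.78 ± 0.078, adjusted p = 8.37e-06), by limma. It was the 1 member of 7 called in that prefrontal comparison, which called 0.95% of probe sets and 0.508% lower. Without MPTP the strains were close: TgS minus FVB/N was -0.06 in prefrontal cortex and 0.09 in caudate-putamen, neither called. The paralog Ifit2 did not separate in the same way, with 5.84 to 6.32 in the 4 TgS MPTP arrays and 5.83 to 6.96 in the other 25. The mean of 42 interferon-stimulated genes, Ifit3 among them, was 6.56 to 6.63 in the 4 TgS MPTP arrays and 6.46 to 6.87 in the rest, which overlap. Within caudate-putamen it was 6.56 and 6.57 in the TgS MPTP arrays, 6.71 to 6.74 in FVB/N MPTP arrays and 6.57 to 6.66 in naive arrays, and the TgS MPTP arrays lay lowest by a margin of less than 0.01. The mean of the 14 interferon-gamma-induced genes was likewise lowest there, at 6.25 in both TgS MPTP arrays against 6.44 to 6.47 in FVB/N MPTP arrays and 6.31 to 6.47 in naive arrays.

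Leukocyte and glial markers were read beside Ifit3. The mean of 13 microglial markers was 8.80 to 9.16 in the 4 TgS MPTP arrays and 8.52 to 9.35 in the other 25. The mean of 12 lymphocyte markers was 6.23 to 6.41 against 5.99 to 6.37, and Cd3g, a T cell receptor subunit, lay between 3.87 and 4.53 on every array. The mean of 7 neutrophil and monocyte markers was 6.42 to 7.11 against 5.83 to 7.25. With regions pooled, all 3 lists overlap between the TgS MPTP arrays and the rest. Within each region the lymphocyte list was higher in TgS than in the other strains under MPTP. It was 6.35 to 6.41 in TgS caudate-putamen against 6.15 to 6.21 in FVB/N, with 6.25 in TgR, and 6.23 in both TgS prefrontal arrays against 5.99 to 6.07 in FVB/N, with 6.02 to 6.03 in TgR. Naive TgS arrays also lay above naive FVB/N arrays in this list, at 6.22 to 6.29 against 6.01 to 6.15 in prefrontal cortex. Naive TgR prefrontal arrays ran from 5.995 to 6.369. In naive caudate-putamen it was 6.17 to 6.23 in TgS, 6.14 to 6.16 in FVB/N and 6.11 to 6.15 in TgR. The part of these markers in the Ifit3 result was not tested.

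**Figure D2:**
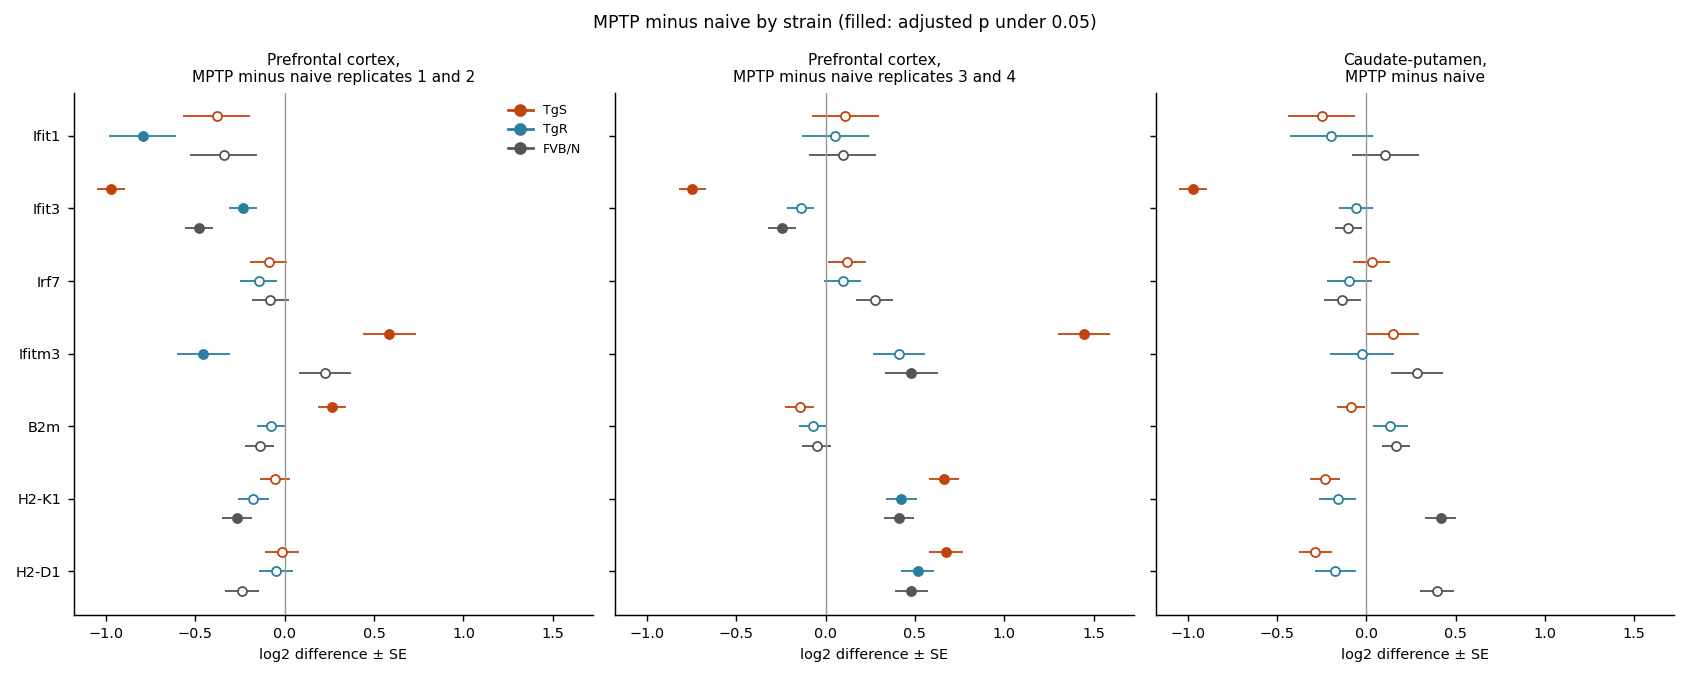
Log2 difference, MPTP minus naive, with its standard error for each gene and strain, in prefrontal cortex against each set of naive arrays and in caudate-putamen. Filled points passed the test; the Ifit3 points of TgS stand at -0.97, -0.75 and -0.97, while the H2-K1 and H2-D1 points of prefrontal cortex lie on opposite sides of 0 in FVB/N against the 2 naive sets.

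The class I genes differed between TgS and FVB/N in MPTP-exposed caudate-putamen. H2-K1, a class I heavy chain, read 9.96 and 9.96 in TgS against 10.52 and 10.59 in FVB/N (log2 signal). H2-D1, the other classical heavy chain, read 10.23 and 10.27 in TgS against 10.86 and 10.81 in FVB/N. B2m, the invariant light chain, read 11.20 and 11.30 in TgS against 11.63 and 11.53 in FVB/N. For each of these 3 genes both TgS arrays lay under both FVB/N arrays.

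The log2 differences were -0.60 ± 0.084 for H2-K1 (1.51-fold lower, adjusted p = 0.000379), -0.59 ± 0.094 for H2-D1 (1.5-fold lower, adjusted p = 0.0014) and -0.33 ± 0.080 for B2m (1.26-fold lower, adjusted p = 0.0292), by limma. With Ifit3 this makes 4 of 7 members lower in TgS, in a comparison that called 2.82% of probe sets, and 1.23% lower. The B2m call was lost when any 1 of its 4 arrays was left out. In a model that did not split the naive prefrontal arrays, Ifit3 alone of the 4 stayed called. Ifit1 (-0.42) and Ifitm3 (-0.28) were not called. The single TgR array under MPTP had H2-K1 at 9.86, H2-D1 at 10.23 and B2m at 11.51.

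When naive, the same region showed no such gap. H2-K1 was 10.26 and 10.12 in TgS against 10.24 and 10.04 in FVB/N, and H2-D1 was 10.59 and 10.48 against 10.46 and 10.42. None of the 7 members was called between TgS and FVB/N in naive caudate-putamen, where 6.32% of probe sets were. The heavy chains thus moved in opposite directions with MPTP: by 0.42 for H2-K1 and 0.40 for H2-D1 in FVB/N, and by -0.23 and -0.29 in TgS. Of these 4 differences between the brightest probe sets, H2-K1 in FVB/N was called (1.33-fold, adjusted p = 0.0257 in limma, with 0.689% of probe sets called). H2-D1 in FVB/N had an adjusted p of 0.061 in limma. Of all 19 probe sets of the 7 genes, 2 were called higher in FVB/N. In TgS 3 were called lower, that of Ifit3 and others of the class I genes, with 3.23% of probe sets called.

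The MPTP effect differed between TgS and FVB/N by -0.645 for H2-K1 (adjusted p = 0.00751) and by -0.68 for H2-D1 (adjusted p = 0.0115), by limma. The same fit without the naive FVB/N array whose labels conflict gave -0.545 (adjusted p = 0.0374) and -0.66 (adjusted p = 0.0353), and then H2-K1 was no longer called for MPTP in FVB/N alone (0.315, adjusted p = 0.236), nor was it without either FVB/N MPTP array. Averaging all probe sets of a gene gave -0.325 for H2-K1 and -0.298 for H2-D1, neither called. The H2-K1 call was also lost without FVB/N MPTP replicate 2 (adjusted p = 0.0557) and the H2-D1 call without naive TgS replicate 1 (adjusted p = 0.0528). Both calls were lost in the model that did not split the naive prefrontal arrays, and the H2-K1 call with each region fitted alone (adjusted p = 0.0604, limma). For TgR, whose MPTP group is 1 array assumed to vary like the others, the same differences were -0.575 and -0.57, not called, where 0.46% of probe sets were.

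Cell markers moved with these contrasts. Over all probe sets, 2.82% were called between TgS and FVB/N under MPTP, 0.689% for MPTP within FVB/N and 3.23% within TgS. Between TgS and FVB/N under MPTP, 4 of 4 cortical neuron markers were higher in TgS caudate-putamen (list mean 8.39 to 8.53 against 7.11 to 7.90), 2 of 12 meningeal fibroblast markers were lower (7.05 to 7.06 against 7.43 to 7.57), and none of 16 endothelial or 5 striatal neuron markers was called. Microglial markers had 1 of 13 lower, with list means of 8.98 to 9.16 against 8.95 to 9.21. Within FVB/N, MPTP went with 3 of 4 cortical markers lower (7.11 to 7.90 against 8.29 to 8.90) and 4 of 13 microglial markers higher. Within TgS it went with 4 of 4 cortical markers higher (8.39 to 8.53 against 6.80 to 7.21), 9 of 12 meningeal markers lower (7.05 to 7.06 against 7.81 to 8.0), 7 of 13 microglial markers higher (8.98 to 9.16 against 8.52 to 8.61) and 2 of 7 neutrophil and monocyte markers higher (6.42 to 7.0 against 5.83 to 5.86). The mean of 6 choroid plexus markers under MPTP was 7.77 to 7.97 in TgS and 6.76 to 8.59 in FVB/N. When naive it was 8.73 to 8.85 in TgS and 7.89 to 8.85 in FVB/N. The shares of cortex and choroid plexus in the dissected tissue and their part in the class I result were not tested.

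**Figure D3:**
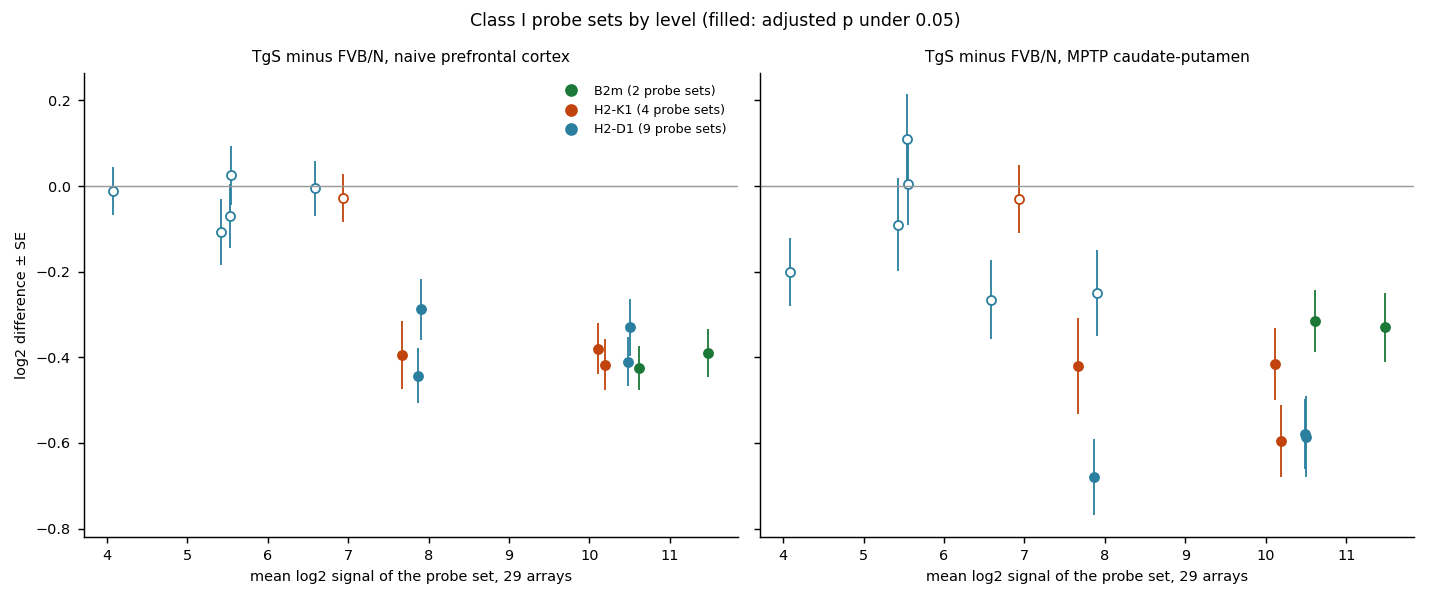
Log2 difference, TgS minus FVB/N, of the 15 probe sets of B2m, H2-K1 and H2-D1 against their mean log2 signal over 29 arrays, in naive prefrontal cortex and in MPTP caudate-putamen. Filled points passed the test; all probe sets with a mean above 10 lie below 0 and passed in both panels, and none of those under 7 passed.

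The probe sets of a gene were not alike. In MPTP caudate-putamen 2 of 2 B2m probe sets, 3 of 4 for H2-K1 and 3 of 9 for H2-D1 were called lower in TgS than in FVB/N, and none was called higher. The H2-K1 differences ran from -0.60 to -0.03 and those of H2-D1 from -0.68 to 0.11. For the strain difference in the MPTP effect, 1 of 4 H2-K1 and 3 of 9 H2-D1 probe sets were called. Of the 9 H2-D1 probe sets, 4 lie among the dimmest 25% of the table.

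In naive prefrontal cortex, TgS held less Ifitm3 and less of the class I genes than FVB/N. Ifitm3, a membrane protein that blocks virus entry at endosomes, was 9.34, 9.31, 8.56 and 8.37 in TgS against 9.81, 9.67, 9.64 and 9.33 in FVB/N. The brightest TgS array just reached the dimmest FVB/N array. B2m was 11.06, 11.17, 11.53 and 11.52 in TgS against 11.75, 11.76, 11.67 and 11.66 in FVB/N, with no overlap. H2-K1 was 10.37, 10.29, 9.61 and 9.61 in TgS against 10.68, 10.77, 10.02 and 10.08 in FVB/N.

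These values list replicates 1 and 2 before replicates 3 and 4, and the sets differ. Pooled over both, B2m was lower by 0.39 ± 0.057 on the log2 scale (1.31-fold) and H2-D1 by 0.33 ± 0.066 (1.26-fold), with adjusted p = 4.33e-05 and 0.0013 in limma. Ifitm3 (-0.72) and H2-K1 (-0.42) were called as well, which makes 4 of 7 members lower where 20.2% of probe sets were called and 11.8% called lower. In replicates 3 and 4 alone, Ifitm3 was 2.03-fold lower (-1.02, adjusted p = 0.000377) and H2-K1 lower at -0.44 (adjusted p = 0.00535), with 3.04% of probe sets called, while B2m (-0.14, adjusted p = 0.37) was not called. In replicates 1 and 2 alone all 4 were called, B2m at -0.64 (adjusted p = 4.98e-06) and Ifitm3 at -0.42 (adjusted p = 0.0446), with 25% of probe sets called. The B2m strain difference was larger in replicates 1 and 2 by -0.50 (adjusted p = 0.00459, with 15.2% of probe sets called). Fitted without the 6 arrays, 3 members stayed called, Ifitm3, H2-K1 and H2-D1, and B2m was not (adjusted p = 0.239); 3.73% of probe sets were called then. A model that did not split the sets kept the B2m call alone.

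The naive strain difference was larger in prefrontal cortex than in caudate-putamen. Caudate-putamen minus prefrontal cortex, it differed by 0.578 for Ifitm3 (adjusted p = 0.0493), 0.468 for H2-K1 (adjusted p = 0.00645) and 0.425 for H2-D1 (adjusted p = 0.0239) in limma, with 9.47% of probe sets called. The Ifitm3 call was lost when any of 21 arrays was left out, the H2-D1 call when any of 5 was, and the H2-K1 call without the naive FVB/N caudate-putamen array whose labels conflict. Without the 6 arrays the differences were 0.88 for Ifitm3 (adjusted p = 0.0499), 0.49 for H2-K1 (adjusted p = 0.034) and 0.41 for H2-D1 (adjusted p = 0.0721, not called) in limma. Vessel markers moved beside these genes: 9 of 16 endothelial and mural markers were lower in naive TgS prefrontal cortex (list mean 7.77 to 8.66 against 8.27 to 8.56), and 12 of 16 when the 6 arrays were left out. Meningeal markers had 5 of 12 lower (7.54 to 8.31 against 7.95 to 8.43) and microglial markers 1 higher and 2 lower of 13. Over all probe sets 8.38% were higher and 11.8% lower in naive TgS prefrontal cortex, with the 6 arrays included. Their part in the result was not tested.

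In MPTP-exposed prefrontal cortex the brightest probe sets of the class I genes and that of Ifitm3 were not called between TgS and FVB/N. Of all 19 probe sets of the 7 genes, 2 were called lower in TgS, beside 0.508% of all tested probe sets. They are that of Ifit3 and another of a class I gene. The dimmer B2m probe set averaged 10.41 in TgS and 10.78 in FVB/N. H2-K1 was 10.25 and 10.30 in TgS against 10.44 and 10.48 in FVB/N, a difference of -0.19 (adjusted p = 0.56, limma). B2m differed by -0.24 (adjusted p = 0.29, limma). Averaged over region and treatment, 5 of 7 members were lower in TgS than in FVB/N, where 12.2% of probe sets were called and 5.53% were called lower. The log2 differences were -0.32 for Ifit3, -0.30 for Ifitm3, -0.29 for H2-K1, -0.26 for B2m and -0.24 for H2-D1. The same 5 were called without the 6 arrays, with 11.6% of probe sets called.

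TgR differed from FVB/N in the heavy chains. TgR and TgS were not tested against each other. Averaged over region and treatment, H2-K1 was lower by 0.32 on the log2 scale (adjusted p = 0.000154) and H2-D1 by 0.24 (adjusted p = 0.00378) in limma, 2 of 7 members where 8.12% of probe sets were called and 3.11% called lower. Without the single MPTP caudate-putamen array H2-K1 stayed called at -0.19 (adjusted p = 0.0214) and H2-D1 did not (-0.12, adjusted p = 0.202). Of all probe sets, 1 of 4 for H2-K1 and 4 of 9 for H2-D1 were called lower. In naive prefrontal cortex H2-K1 was 10.55, 10.32, 9.74 and 9.93 in TgR against 10.68, 10.77, 10.02 and 10.08 in FVB/N. It and H2-D1 were called there (-0.25 and -0.22, with 18.6% of probe sets called and 8.74% lower), in replicates 1 and 2 alone (34% called) but not in replicates 3 and 4 alone (0.0354% called), and not without the 6 arrays.

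None of the 7 members was called between TgR and FVB/N in naive caudate-putamen (0.217% of probe sets called) or in MPTP prefrontal cortex (0.835%). Ifit3 in TgR prefrontal cortex under MPTP was 7.29 and 7.30 against 7.13 and 6.96 in FVB/N, a difference of 0.25 with an adjusted p of 0.16 in limma. The TgR and TgS comparisons share their FVB/N arrays.

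**Figure D4:**
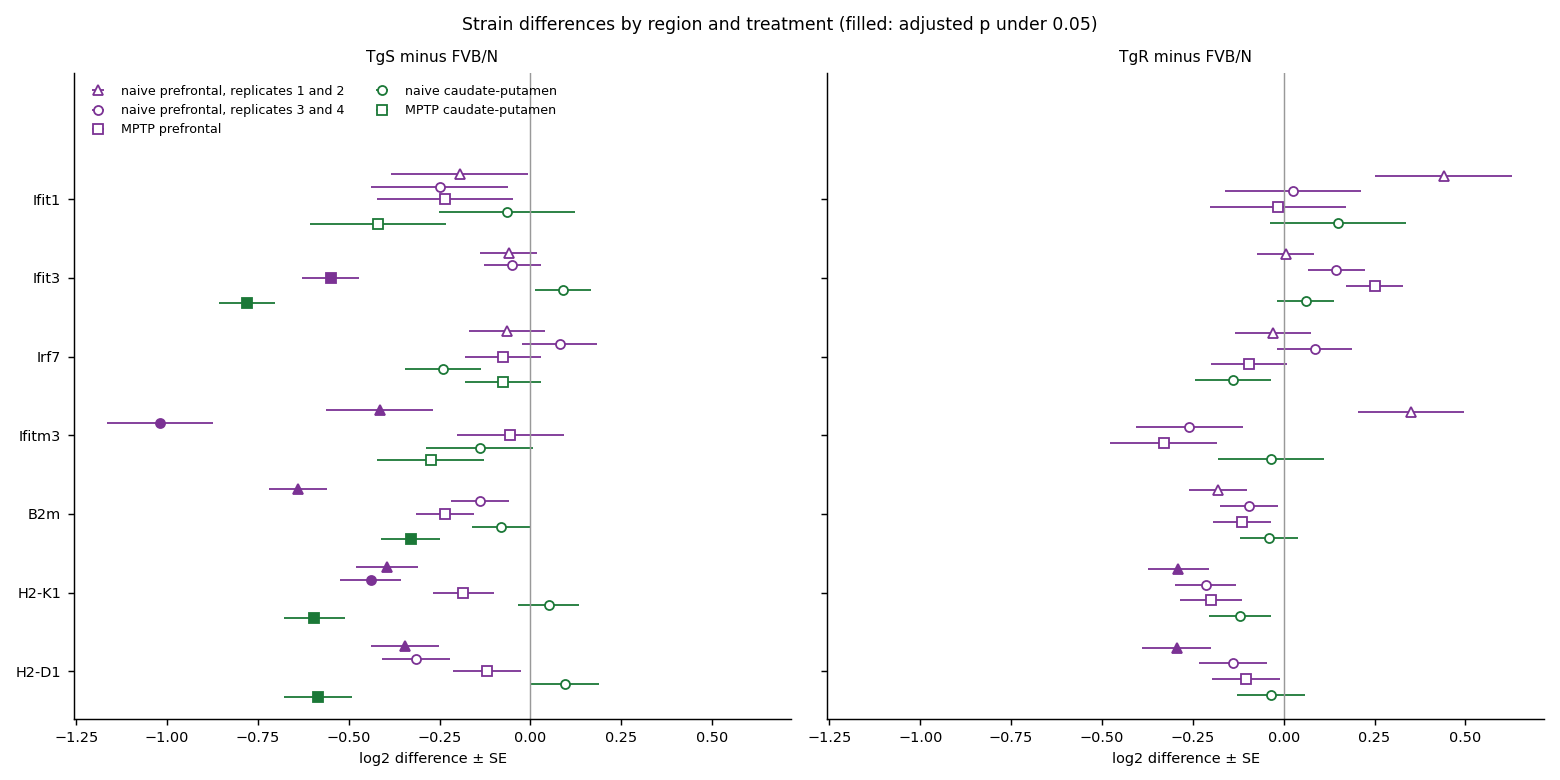
Log2 difference between strains with its standard error for each gene, TgS minus FVB/N in 5 settings on the left and TgR minus FVB/N in 4 settings on the right. Filled points passed the test; Ifit3 departs from 0 in TgS in the 2 MPTP settings, Ifitm3 and H2-K1 in both sets of naive prefrontal arrays.

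For MPTP in prefrontal cortex averaged over strains, the direction of the heavy chains depended on the naive arrays. The 6 MPTP arrays held H2-K1 at 10.25 to 10.48 with a median of 10.29. Naive replicates 3 and 4 ran from 9.61 to 10.08 with a median of 9.84, and naive replicates 1 and 2 from 10.29 to 10.77 with a median of 10.46. The MPTP arrays lay above all of one set and overlapped the lower end of the other.

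Against replicates 3 and 4, H2-K1 was 1.41-fold higher (0.50 ± 0.049, adjusted p = 2.7e-07), H2-D1 1.47-fold higher (0.56 ± 0.054, adjusted p = 2.66e-07) and Ifitm3 1.72-fold higher (0.78 ± 0.085, adjusted p = 8.82e-07) in limma. Irf7 was higher by 0.16 (adjusted p = 0.0316), and this call was lost when any of 6 arrays was left out. With Ifit3 lower, 5 of 7 members were called, where 47.2% of probe sets were. Of all their probe sets, 3 of 4 for H2-K1 and 5 of 9 for H2-D1 were called higher and 1 of each lower, and 1 of 2 for B2m was called lower. Against replicates 1 and 2, H2-K1 was lower at -0.17 (adjusted p = 0.00607), Ifit1 at -0.51 (adjusted p = 5e-04) and Ifit3 at -0.56 (adjusted p = 5.3e-09). That is 3 of 7 members lower, where 67.3% of probe sets were called and 42.3% called lower. Between the 2 naive sets themselves 6 of 7 members were higher in replicates 1 and 2, from 0.19 for Ifit3 to 0.67 for H2-K1, where 39.2% of probe sets were higher. Against replicates 3 and 4 the heavy chains were called higher in each strain, by 0.67 (H2-K1) and 0.68 (H2-D1) in TgS, 0.43 and 0.52 in TgR, and 0.41 and 0.48 in FVB/N. The MPTP effect and the set of naive arrays cannot be told apart for the heavy chains. Ifit3 was lower against both.

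B2m took another course in TgS prefrontal cortex. It was 11.41 and 11.35 under MPTP, against 11.06 and 11.17 in naive replicates 1 and 2 and 11.53 and 11.52 in replicates 3 and 4, so that the MPTP arrays lay between the 2 naive sets. FVB/N had 11.69 and 11.54 under MPTP, against 11.75 and 11.76 in replicates 1 and 2. TgS was higher by 0.27 against replicates 1 and 2 (adjusted p = 0.0109, limma), where 46.2% of probe sets were called. Its effect minus the FVB/N effect was 0.405 (adjusted p = 0.0221, limma), a call lost when any of 5 arrays was left out, and 12.4% of probe sets were called. Against replicates 3 and 4 B2m was called neither in TgS nor for the TgS effect minus the FVB/N effect. The dimmer B2m probe set averaged 10.41 in TgS under MPTP and 10.335 in replicates 1 and 2, which was not called.

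Ifitm3 under MPTP differed by strain in prefrontal cortex, for each transgenic strain against 1 of the 2 naive sets. TgS had 9.89 and 9.93 under MPTP, against 8.56 and 8.37 in naive replicates 3 and 4 and 9.34 and 9.31 in replicates 1 and 2. FVB/N had 10.22 and 9.71 under MPTP, against 9.64 and 9.33 in replicates 3 and 4 and 9.81 and 9.67 in replicates 1 and 2. The TgS MPTP arrays were above all 4 naive TgS arrays. TgS was 2.72-fold higher (1.45) against replicates 3 and 4 and higher by 0.59 against replicates 1 and 2, with adjusted p = 2.42e-06 and 0.00307 in limma.

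In FVB/N Ifitm3 was higher by 0.48 against replicates 3 and 4 (adjusted p = 0.0331, limma). The TgS effect minus the FVB/N effect was 0.965 (adjusted p = 0.0388) against replicates 3 and 4, a call lost in 8 of the fits that leave out 1 array and also without the 6 arrays (adjusted p = 0.0538). Against replicates 1 and 2 the TgS effect minus the FVB/N effect was not called, where 12.4% of probe sets were. TgR had 9.54 and 9.73 under MPTP against 10.05 and 10.13 in naive replicates 1 and 2, lower by 0.46 (adjusted p = 0.0138 in limma, with 55.9% of probe sets called). Replicates 3 and 4 of TgR had 9.01 and 9.44. Against their mean of 9.225 the MPTP mean of 9.635 was higher, which was not called, where 19.3% of probe sets were. The TgR effect minus the FVB/N effect was -0.68 against replicates 1 and 2 (adjusted p = 0.0377 in limma, with 12.9% of probe sets called). Against replicates 3 and 4 it was not called, where 0.124% of probe sets were. Of 16 endothelial markers 11 were higher and 1 lower under MPTP than in naive replicates 3 and 4 (list mean 8.35 to 8.70 against 7.77 to 8.51). Over all probe sets 26.7% were higher and 20.5% lower there. Against replicates 1 and 2, 3 endothelial markers were higher and 6 lower, beside 25% higher and 42.3% lower over all probe sets. Meningeal markers, with a list mean of 7.81 to 8.25 under MPTP, had 6 of 12 higher against replicates 3 and 4 (7.54 to 8.0) and 7 lower against replicates 1 and 2 (8.26 to 8.61). Their part was not tested.

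Ifit1, which binds viral RNA that lacks a host cap, ran from 5.27 to 6.57 over the 29 arrays, and Irf7, the factor that amplifies type I interferon production, from 5.54 to 6.15. Ifit1 was lower in TgR prefrontal cortex under MPTP, at 5.58 and 5.83 against 6.43 and 6.57 in naive replicates 1 and 2 (-0.80, adjusted p = 0.00169, limma). Against 5.57 and 5.73 in naive replicates 3 and 4 those arrays overlapped. Neither gene was called in caudate-putamen for MPTP or between strains. Both lie among the dimmest 25% of probe sets.

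Between regions under MPTP, prefrontal cortex exceeded caudate-putamen in Ifitm3 (0.31, adjusted p = 0.00858), H2-K1 (0.21, adjusted p = 0.00286) and H2-D1 (0.24, adjusted p = 0.00226) in limma, 3 of 7 where 50.7% of probe sets were called and 23.7% called higher. Without the single TgR caudate-putamen array H2-K1 and H2-D1 were lost (adjusted p = 0.143 and 0.0777). When naive, Ifit3 and B2m were higher in prefrontal cortex, each by 0.16, where 59.7% of probe sets were called and 31.1% called higher. Both B2m probe sets were called higher, as were 3 of 4 for H2-K1 and 4 of 9 for H2-D1, although the brightest of each heavy chain was not. With naive replicates 1 and 2 alone 6 members were higher in prefrontal cortex (66.3% called), of which the B2m call (adjusted p = 0.049, limma) was lost when any of 24 arrays was left out, with a set term, with a replicate block and after quantile normalization. With replicates 3 and 4 alone B2m was higher while Ifit1, Ifitm3, H2-K1 and H2-D1 were lower (50% called). The MPTP effect in caudate-putamen minus that in prefrontal cortex against replicates 3 and 4 was called for Ifitm3, H2-K1 and H2-D1, where 28.1% of probe sets were called. Against replicates 1 and 2 it was called for Ifit1, Ifit3 and H2-K1, where 53.2% were called; each of these 3 calls was lost when any of 5 or more arrays was left out.

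The wider interferon system was read from 5 gene lists, which include the members. In MPTP caudate-putamen TgS against FVB/N, 1 of 42 interferon-stimulated genes was lower, Ifit3, and none of 14 interferon-gamma-induced genes, 9 class II genes or 26 sensing and signalling genes was called. Of 19 class I pathway genes 4 were lower, H2-K1, H2-D1, B2m and Psme1 (-0.39), an activator of the proteasome. Over all probe sets 1.23% were lower in that comparison. The median difference of the interferon-stimulated list was -0.17, against -0.02 over all probe sets. In MPTP prefrontal cortex the calls were Ifit3 and Bst2 (-0.37, adjusted p = 0.018, limma), tetherin, which holds budding virus on the cell. In naive caudate-putamen the proteasome subunits Psmb9 (-0.35) and Psmb8 (-0.37) were lower in TgS.

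In naive prefrontal cortex TgS had 13 of 42 interferon-stimulated genes lower and 1 higher, among them Trim25 (-0.53), a ubiquitin ligase of RNA sensing, Irf9 (-0.33), part of the interferon-activated transcription complex, and Bst2 (-0.28). Of all probe sets 11.8% were lower and 8.38% higher in that comparison. Without the 6 arrays 5 of the list were lower and none higher, where 3.73% of probe sets were called. The class I list had 6 of 19 lower, including Psmb9 (-0.29), and 3 without the 6 arrays. Among sensing genes 6 of 26 were lower, with the kinase Tbk1 at -0.33, and the kinase Jak1 was higher at 0.55. Averaged over region and treatment, TgS had 13 of 42 interferon-stimulated genes lower and 1 higher, with Rtp4 (-0.27), Oas1a (-0.25), which senses double-stranded RNA, and Bst2 (-0.19). The list median was -0.10, against -0.01 over all probe sets. Of all probe sets 5.53% were lower. Without the 6 arrays 15 of the list were lower and 1 higher, where 11.6% of probe sets were called.

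MPTP in caudate-putamen, averaged over strains, left this list at a median of 0.01, the same as all probe sets. Pml, a nuclear body protein, was higher (0.23) and Ifit3 lower. Genes of microglia and phagocytes were among the calls of the other lists: Irf8, a factor of myeloid cells (0.34), Ctss, the cathepsin that trims the class II chaperone (0.50), Ifi30, a lysosomal thiol reductase (0.29), and the receptor Tlr7 (0.27) were higher, and Gbp3 was lower (-0.25). Of 13 microglial markers 8 were higher (list mean 8.95 to 9.35 in MPTP arrays against 8.52 to 8.83 in naive arrays), and 8 of 12 meningeal markers were lower (7.05 to 7.57 against 7.45 to 8.0). The neutrophil and monocyte list had 2 of 7 higher (6.08 to 7.0 against 5.83 to 5.94). Over all probe sets 1.81% were higher and 1.55% lower. The cell lists named here were read beside the interferon genes. Their part was not tested.

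In prefrontal cortex under MPTP, 15 of 42 interferon-stimulated genes were higher and 12 lower against naive replicates 3 and 4, led by Ifitm2 (1.08) and Trim25 (0.81), beside 26.7% higher and 20.5% lower over all probe sets. Against replicates 1 and 2, 6 were higher and 21 lower beside 25% higher and 42.3% lower over all probe sets, with Adar (1.55), an RNA editing enzyme, and Ifi27l2a (-0.75). The interferon-gamma list had 2 higher and 2 lower against replicates 3 and 4 and 9 lower of 14 against replicates 1 and 2, among them Gbp3 (-0.69) and Igtp (-0.60), GTPases that attack intracellular parasites. In TgR, averaged over region and treatment, 3 of 42 interferon-stimulated genes were lower, including Irf9 (-0.31), beside 3.11% lower over all probe sets. Calr (-0.29) and Pdia3 (-0.33), chaperones of class I assembly, were lower beside the heavy chains.

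**Figure D5:**
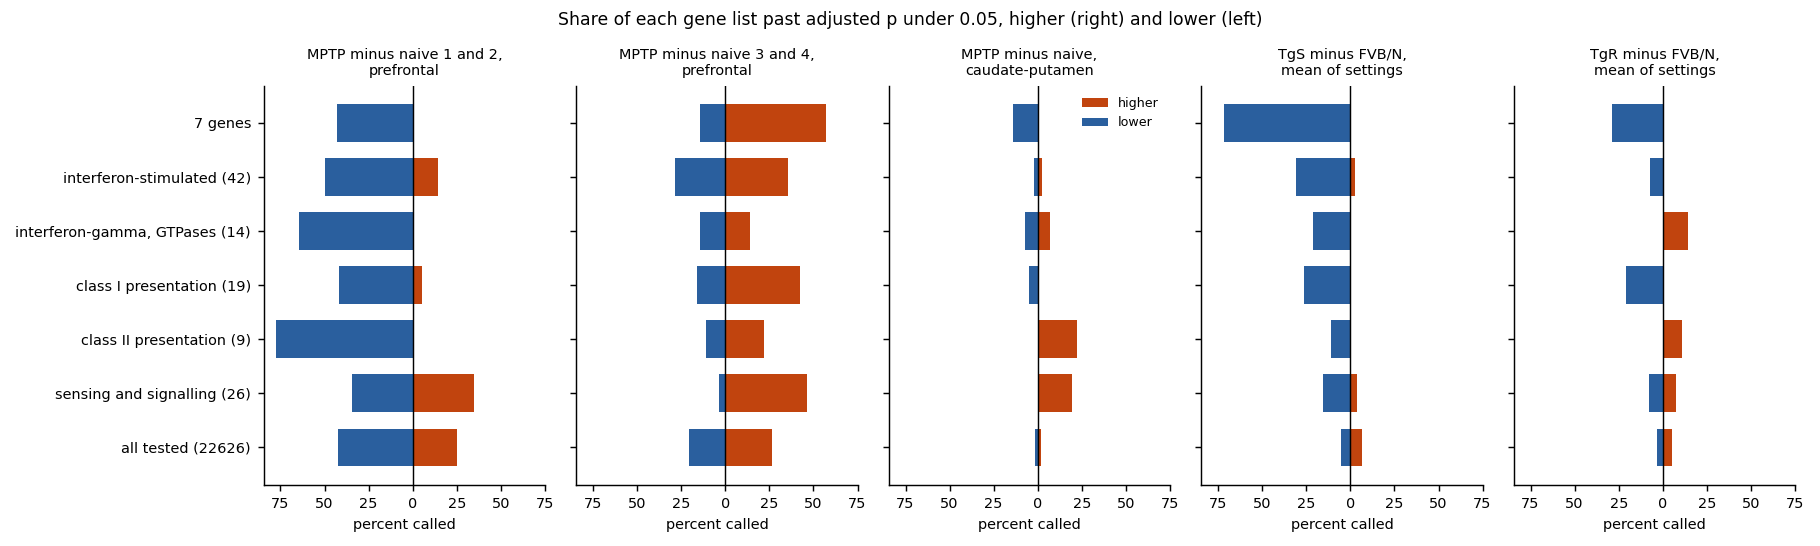
Percent of genes called higher (right of 0) and lower (left of 0) for the 7 genes, the 5 gene lists with the number measured, and all 22626 probe sets, in 3 MPTP comparisons and in the strain means of TgS and TgR against FVB/N. In the TgS mean, 5 of 7 genes and 13 of 42 interferon-stimulated genes were lower beside 5.53% of all probe sets, while both prefrontal MPTP panels show large shares of every list and of all probe sets.

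Over the 29 arrays H2-K1 and H2-D1 moved together, with a Pearson r of 0.97 between their log2 signals, and each was the other's closest gene. Ifitm3 followed them at 0.74 and 0.73, and B2m, their partner chain, at 0.24 and 0.20. Ifit3 was nearly unrelated to Ifitm3 (-0.11) and H2-K1 (0.16) and stood at 0.46 with Ifit1. The genes most like Ifit3 were Hes5 (0.85), Cirbp (0.85) and Coa7 (0.82). Cirbp, a cold-inducible RNA-binding protein, was 9.16 to 9.41 in the 4 TgS MPTP arrays and 9.35 to 10.41 in the other 25. The genes most like Ifitm3 were Ifitm2 (0.88), Klc4 (0.88) and Ints3 (0.87), and those most like B2m were Phyh (0.78), Nedd8 (0.75) and Rit1 (0.75). The closest to Ifit1 was Pgpep1 (0.86) and to Irf7 Egfr (0.77). These values describe the arrays, which share region, strain, treatment and the split between naive prefrontal sets.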

How the data were processed

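Values were the deposited log2 signals of Affymetrix probe sets, summarised by the authors with RMA; the submitters' processing notes name Expression Console and Power Tools of Affymetrix, with no version. Whether arrays were summarised together is not stated. RMA makes arrays comparable in distribution, so a shift shared by most genes would not show. The table has 22690 probe sets, of which 64 controls were left out. Of the rest 20380 carry 1 symbol, 691 several and 1555 none.

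A single model in limma 3.58.1 (R 4.3.3) held all 29 arrays with 15 means: the 12 groups of region, strain and treatment, with naive prefrontal cortex of each strain split by the spelling of its source label. It left 14 residual degrees of freedom. Tests were moderated and two-sided, with Benjamini-Hochberg adjustment over 22626 probe sets in each comparison and a threshold of 0.05. No filter on low signal was set. On simulated data with 200 changed probe sets, 196 were recovered with 8 false calls. This covered only MPTP in caudate-putamen averaged over strains, with independent noise and planted changes larger than most member differences reported here. Recovery of smaller differences, or in comparisons of fewer arrays, was not tested. Alternatives were a model without the split, a set term, 23 arrays, each region alone, quantile normalization, a filter on the dimmest probe sets, trended robust variances, mean probe sets, replicate blocks and single arrays left out.

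The text names all 7 members, up to 4 genes per list and comparison with the smallest p among those called, and the closest genes by correlation. Members and lists were chosen with earlier results of these data known. Number of arrays limits precision, since signal over background is unknown.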

Additional observations from a re-analysis of the deposited data

Results flagged for a closer look

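Each value here is a log2 difference between 2 effects, tested in limma with an adjusted p under 0.05, and each is listed because the effect differed between strains, regions or sets of arrays. The MPTP effect in caudate-putamen was lower in TgS than in FVB/N for Ifit3 by -0.87, for H2-K1 by -0.645 and for H2-D1 by -0.68. In prefrontal cortex against naive replicates 1 and 2, TgS minus FVB/N was -0.49 for Ifit3 and 0.405 for B2m, and TgR minus FVB/N was -0.68 for Ifitm3. Against naive replicates 3 and 4, TgS minus FVB/N was -0.5 for Ifit3 and 0.965 for Ifitm3.

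The MPTP effect in caudate-putamen minus that in prefrontal cortex against naive replicates 3 and 4 was -0.6417 for Ifitm3, -0.4917 for H2-K1 and -0.5783 for H2-D1. Against naive replicates 1 and 2 it was 0.3917 for Ifit1, 0.185 for Ifit3 and 0.1733 for H2-K1. H2-K1 thus has opposite signs against the 2 sets. The naive TgS minus FVB/N difference in caudate-putamen minus that in prefrontal cortex was 0.5775 for Ifitm3, 0.4675 for H2-K1 and 0.425 for H2-D1. In naive prefrontal cortex the B2m difference between TgS and FVB/N was -0.5 in replicates 1 and 2 minus replicates 3 and 4. Of 21 gene and group combinations with 4 arrays, none held an array far from the rest. These are the naive prefrontal groups, which join both sets of arrays, so a gap between the sets can hide such an array. Groups of 1 or 2 arrays were not tested in this way.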

How the results depend on the processing

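Counts are of members called, with the reported value after each. Without the split or a set term, the count was 2 for MPTP in prefrontal cortex against naive replicates 3 and 4 (5), 1 for TgS against FVB/N in naive prefrontal cortex (4), 0 in MPTP prefrontal cortex (1), 1 in MPTP caudate-putamen (4) and 2 for the TgS mean (5). It was 0 for TgR in naive prefrontal cortex (2), 0 for the TgR mean (2), 0 for regions under MPTP (3) and 1 for differences between effects (18). TgR in naive prefrontal cortex had 1 with a set term, 0 without the 6 arrays, 1 with each region alone and 0 with mean probe sets. Differences between effects had 8 with a set term, 11 without the 6 arrays and 4 with each region alone. Regions when naive (2) had 5 without the 6 arrays and 4 with mean probe sets. The TgR mean had 1 with each region alone, and TgS in MPTP prefrontal cortex had 2 with mean probe sets.

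Leaving out each array in turn gave 12 to 21 differences between effects, 1 to 3 for regions under MPTP, 2 to 3 for regions when naive, 1 to 3 for the TgR mean, 1 to 3 for TgR in naive prefrontal cortex, 3 to 4 for TgS in MPTP caudate-putamen, 5 to 6 for the TgS mean, 3 to 4 for MPTP against naive replicates 1 and 2, and 4 to 5 against replicates 3 and 4. The Ifit3 difference in MPTP effect between TgS and FVB/N in caudate-putamen stayed called throughout, at -0.92 to -0.82 with an array left out.

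Reversals came without the split or a set term: H2-K1 for MPTP against naive replicates 1 and 2 at 0.1675 (adjusted p = 0.346) and 0.0725 in FVB/N alone; Ifitm3 at -0.0033 and H2-D1 at -0.0125 for prefrontal cortex against caudate-putamen with naive replicates 1 and 2; H2-K1 at 0.0475 with replicates 3 and 4; and H2-K1 at -0.1592 for the regional difference in MPTP effect against replicates 1 and 2. That model averages the 2 naive sets by construction; causes of the other changes were not tested. Among the reported called values under these alternatives, 646 kept direction and call, 126 lost the call and 6 reversed. With arrays left out, 2562 kept both and 193 lost the call.

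With a replicate block, the count for MPTP in prefrontal cortex against naive replicates 3 and 4 was 4 (5), without Irf7, and differences between effects numbered 12 (18). The other counts of members called kept their values. The replicate block also ended the B2m call for prefrontal cortex against caudate-putamen with naive replicates 1 and 2 (adjusted p = 0.0591). Whether same-numbered arrays share mice is not stated. Of 58 pairs of same-numbered arrays, 15 had deviations correlated over 0.1, and correlations ran from -0.4125 to 0.3121. Most of these pairs join different strains or arms, so the check cannot decide whether both regions came from the same mice. The regions were compared as independent arrays.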
